A study of Danio rerio with 27 samples.

Results

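The IGF binding protein (IGFBP) genes of zebrafish encode secreted proteins that bind the insulin-like growth factors. The 9 symbols looked for by exact gene name, in a table of 24101 gene identifiers, were igfbp1a, igfbp1b, igfbp2a, igfbp2b, igfbp3, igfbp5a, igfbp5b, igfbp6a and igfbp6b. Of these, 8 were measured, by 10 gene identifiers, since igfbp2a and igfbp5a each have 2 and igfbp6a is not analysed here. RNA sequencing of whole larvae of the AB strain, a standard laboratory line, gave 27 libraries, 3 in each of 9 groups. In the groups 10C-AS, 10C-PD, 10C-SB and 10C-DMSO the larvae spent 12 h at 10 °C, a cold stress for this species, and in 28C-AS, 28C-PD, 28C-SB and 28C-DMSO they spent 12 h at 28 °C, the rearing temperature. AS stands for 0.5 µM AS1842856, which inhibits the transcription factor Foxo1, PD for 5 µM PD0325901, which inhibits MEK and so the ERK kinases, and SB for 50 µM SB203580, which inhibits p38 kinases. DMSO is the solvent alone, as the vehicle control. All these groups entered treatment at 96 h post fertilization, and the 96hpf group was collected untreated at that age. Foxo1 inhibition rests on a compound and not on a mutant, and larvae that died were removed before collection.

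IGFBPs hold most of the circulating IGF, prolong its life in blood and keep it from its receptor, and proteases that cut them set the IGF free. The liver secretes much of the circulating supply. IGFBP1 is the member best known for acute regulation: in mammals its liver transcription rises in fasting, falls under insulin and is driven by FoxO factors, and in zebrafish embryos hypoxia raises it, with slower growth. The teleost genome duplication left most members as a and b copies. By the RefSeq annotation of another assembly, GRCz12tu, several members are direct neighbours: igfbp3 lies beside igfbp1a on chromosome 20, igfbp5a beside igfbp2a on chromosome 6 and igfbp2b beside igfbp5b on chromosome 9, while igfbp1b is on chromosome 2 and igfbp6b on chromosome 23.

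Levels are given as scaled TPM, that is the deposited TPM (transcript abundance corrected for length and set to a fixed library total) divided by a factor for each library, from 0.94 to 1.11, that aligns the typical gene. Changes are log2 differences of scaled TPM + 1 between group means, which understates the change of low genes. A gene identifier was called changed at an adjusted p of 0.05 or less (limma, Benjamini-Hochberg over all 24101 identifiers) provided that it also differed at least 1.5-fold, or 0.585 in log2 units. TPM does not keep how deeply each library was sequenced, and the read numbers that the study lists were not used here, so no counting error is given. Nothing in the labels says that the replicates came from separate clutches, so the p-values speak only to the variation among these samples, and that variation may be technical. The mitochondrial share of the libraries ran from 7.30%, in 28C-DMSO replicate 1, to 12.9%. The lowest correlation between libraries of a group was 0.966, between 10C-DMSO replicates 1 and 3, and replicate 1 had the largest spread around its group means, a residual SD of 0.275 on the log2 scale. Liver markers, of which none was at 0 in all 3 libraries of a group, were present as they should be in whole larvae.

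Cold larvae held more IGFBP transcripts, and the rise came mostly from igfbp1a. Summed over the 10 identifiers, the IGFBP level was 205 to 220 scaled TPM in the 10C-DMSO libraries and 119 to 129 in the 28C-DMSO libraries, with no overlap. The other cold groups were in the same range, with means of 202 ± 12.7 in 10C-AS, 196 ± 9.50 in 10C-PD and 223 ± 14.3 in 10C-SB (SD, n = 3 each). The other warm groups lay between 125 ± 6.06 in 28C-SB and 134 ± 2.13 in 28C-PD, and 96hpf was at 132 ± 5.02. igfbp1a made up 40.5% ± 2.17 of the sum in 10C-DMSO and 14.8% ± 4.44 in 28C-DMSO. In warm vehicle larvae igfbp2a was the most abundant member, with 32.7% ± 3.36 of the sum, followed by igfbp5b with 22.2% ± 1.03. The remaining symbols, igfbp1b, igfbp2b, igfbp3, igfbp5a and igfbp6b, each held between 1.97% and 10.3% of the sum in every group mean. These sums are a description and were not tested.

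**Figure D1:**
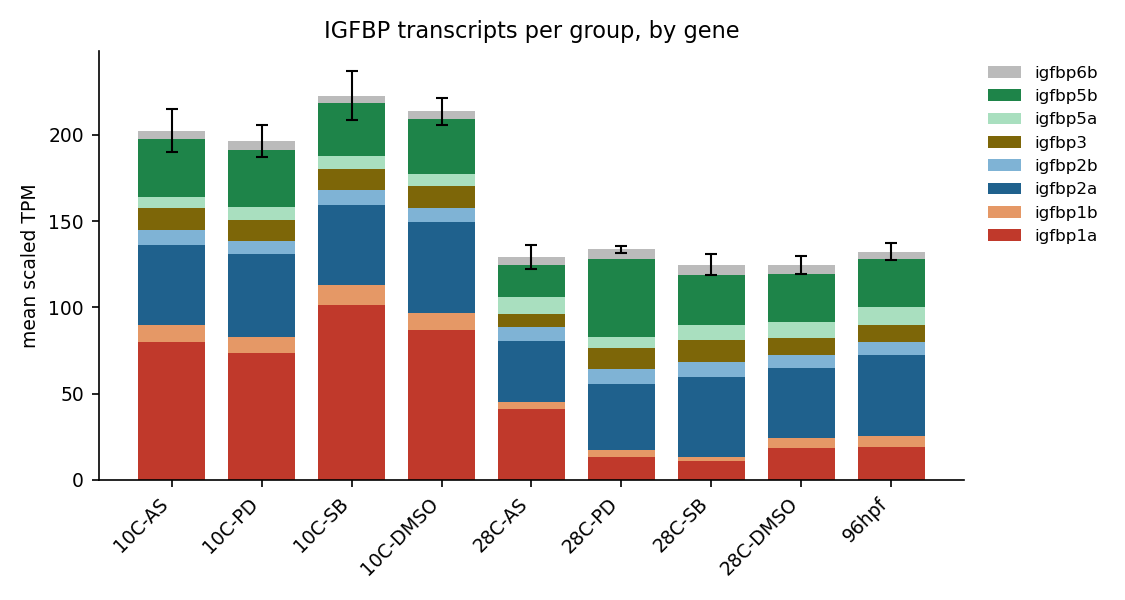
Mean scaled TPM of each IGFBP symbol, stacked, in the 9 groups (igfbp2a and igfbp5a as the sum of 2 identifiers); error bars are the SD of the summed level over 3 libraries. The 4 groups at 10 °C reach 196 to 223, against 124 to 134 in the groups at 28 °C and in 96hpf, and the red igfbp1a segment makes most of the difference.

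The cold response compared 10C-DMSO with 28C-DMSO, so any difference in development over the 12 h is part of it. In it 3 of the 10 identifiers were called, beside 15.8% of all identifiers of the table, 2 of them higher and 1 lower. The median log2 change of the 10 was 0.14, and that of all identifiers was -0.0047. igfbp1a (ENSDARG00000099351) was at 80.4, 84.7 and 94.8 scaled TPM in the 10C-DMSO libraries and at 20.8, 23.4 and 11.6 in the 28C-DMSO libraries. Every cold library was thus far above every warm one, and the means differed 4.66-fold. The log2 rise of igfbp1a was 2.22 with a standard error of 0.19, and its adjusted p was 7.75e-09 in limma. igfbp1b, the other copy of the same ancestral gene, rose in the same direction from a much lower level. igfbp1b (ENSDARG00000038666) was at 8.16, 10.9 and 10.7 scaled TPM in 10C-DMSO and at 6.23, 5.71 and 4.13 in 28C-DMSO, with no overlap. Its log2 rise was 0.79 (standard error 0.17, limma adjusted p = 0.000711).

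The copies stood in a different ratio at each temperature. igfbp1a was 8.82 ± 1.05 times igfbp1b in 10C-DMSO and 3.41 ± 0.65 times in 28C-DMSO (SD, n = 3 each), on the TPM scale, which is corrected for length. The lowest single-library ratio in 10C-DMSO was 7.75, and the highest in 28C-DMSO was 4.09. The untreated 96hpf larvae, with 3.05 ± 0.59, were close to the warm vehicle larvae. Across the cold groups the mean ratio lay between 7.74 in 10C-PD and 8.82 in 10C-DMSO.

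Both vehicle groups were also set against the larvae at the start of treatment. After 12 h at 28 °C (28C-DMSO against 96hpf) 0 of the 10 identifiers were called in limma, beside 2.75% of all identifiers, and 2 had an unadjusted p under 0.05. igfbp1a was at 18.6, 23.4 and 14.9 scaled TPM in 96hpf, a range that overlaps that of 28C-DMSO. After 12 h at 10 °C (10C-DMSO against 96hpf) 2 of the 10 were called, beside 12.4% of all identifiers. These were igfbp1a, with a log2 rise of 2.15 (standard error 0.19, adjusted p = 1.66e-08 in limma), and igfbp1b, with 0.59 (standard error 0.17, adjusted p = 0.00898). The igfbp1b libraries overlapped here, at 8.16, 10.9 and 10.7 in 10C-DMSO and 4.99, 8.40 and 5.65 in 96hpf, and its call was lost without 96hpf replicate 1 (log2 0.46) or 3 (0.53), and without 10C-DMSO replicate 2 (0.52) or 3 (0.54). Of 16 alternatives for this change, 7 ended the call. Both comparisons share libraries with the cold response, so the 3 are not separate evidence.

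igfbp1a also rose in the cold in the presence of each inhibitor. Under SB203580 it was at 97.2, 97.0 and 109.6 scaled TPM in 10C-SB and at 11.6, 9.33 and 11.0 in 28C-SB, which is 9.50-fold. Under PD0325901 it was at 63.4, 75.1 and 81.4 in 10C-PD and at 14.3, 13.2 and 11.5 in 28C-PD, which is 5.64-fold. Under AS1842856 it was at 69.0, 91.3 and 79.8 in 10C-AS and at 32.6, 45.9 and 43.9 in 28C-AS, which is 1.96-fold. The warm levels of these groups were thus spread more widely, relative to their size, than their cold levels, and the lowest cold library, at 63.4, was above the highest warm one, at 45.9. The log2 rises were 3.14, 2.40 and 0.96, each with a standard error of 0.19, and limma adjusted p of 2.62e-11, 1.97e-09 and 0.000286, under SB203580, PD0325901 and AS1842856 in that order. igfbp1b rose under each as well, by 1.79, 1.06 and 1.00 on the log2 scale in the same order, with adjusted p of 2.29e-08, 2.82e-05 and 3.8e-05 in limma. In these 3 comparisons 2, 3 and 5 of the 10 identifiers were called, beside 16.2%, 17.5% and 22.4% of all identifiers. The 3 under PD0325901 include the second igfbp2a identifier, ENSDARG00000111105. It passed the authors' filter only through 10C-PD, where it was high, so its call was built in and is no support.

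**Figure D2:**
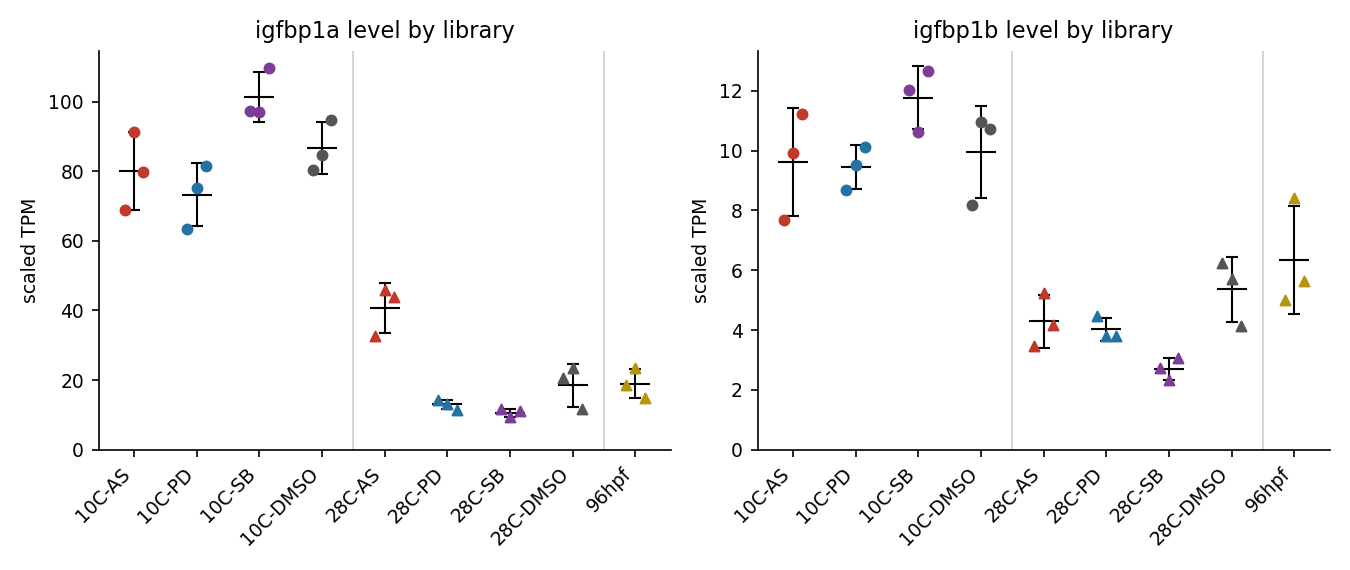
Level of igfbp1a (left) and igfbp1b (right) in scaled TPM in each library; circles are larvae at 10 °C, triangles larvae at 28 °C or at the start, bars the group mean ± SD of 3 libraries. All 12 igfbp1a values at 10 °C lie at 63.4 or above, and the 28C-AS libraries, at 32.6 to 45.9, lie between them and the other warm libraries.

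AS1842856 was the 1 inhibitor under which igfbp1a was called against vehicle with all libraries in the fit, and that was in warm larvae. At 28 °C the 28C-AS libraries were at 32.6, 45.9 and 43.9 scaled TPM and the 28C-DMSO libraries at 20.8, 23.4 and 11.6, a 2.20-fold difference of means with no overlap. igfbp1a was the only one of the 10 identifiers called in that comparison, beside 12.2% of all identifiers, with a log2 rise of 1.13 (standard error 0.19, limma adjusted p = 8.49e-05). At 10 °C the 10C-AS libraries, at 69.0, 91.3 and 79.8, overlapped the 10C-DMSO libraries, at 80.4, 84.7 and 94.8. The log2 difference there was -0.12, with a 95% interval of -0.52 to 0.29, and 0 of the 10 identifiers were called in limma at 10 °C, beside 0.925% of all identifiers, while 1 had an unadjusted p under 0.05. The change under AS1842856 differed between the temperatures: the test of that difference, the change at 10 °C minus the change at 28 °C, gave -1.25 on the log2 scale with a standard error of 0.27 (limma adjusted p = 0.00201). In that test 2 of the 10 identifiers were called, beside 10.8% of all identifiers, the other being igfbp5b.

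igfbp1b, the other copy, was not called there. It was at 3.47, 5.23 and 4.16 scaled TPM in 28C-AS and at 6.23, 5.71 and 4.13 in 28C-DMSO, ranges that overlap. Its log2 difference was -0.26 with a 95% interval of -0.61 to 0.09, whose upper end lies below the interval of igfbp1a, 0.73 to 1.54. The ratio of igfbp1a to igfbp1b was 9.57 ± 0.90 in 28C-AS and 3.41 ± 0.65 in 28C-DMSO (SD, n = 3 each). The 28C-AS libraries, at 8.77 to 10.5, overlapped those of 10C-DMSO, at 7.75 to 9.85, and their mean was above the mean of every cold group. Liver markers were lower in the same libraries. Their summed level over 11 identifiers was 6092 to 6539.7 scaled TPM in 28C-AS and 9448 to 10424 in 28C-DMSO, with 3 of the 11 called lower and none higher. Summed epidermal markers, over 11 identifiers, were also lower, at 5974 to 6952 in 28C-AS and 7398 to 8507 in 28C-DMSO, with 2 of the 11 called lower and none higher. Muscle sums, at 22573 to 25591 in 28C-AS and 27080 to 30274 in 28C-DMSO, and endothelial sums, at 49.0 to 51.8 and 55.2 to 62.8 in the same order, did not overlap either, with 1 of 11 and 1 of 7 identifiers called lower. Cartilage and bone sums overlapped, at 555 to 623 in 28C-AS and 544 to 615 in 28C-DMSO, with 2 of 8 called higher and 1 lower. These marker counts stand beside 12.2% of all identifiers called under AS1842856 at 28 °C. The part of these tissues in the igfbp1a result was not tested. In bulk samples fewer cells of a type and less RNA per cell cannot be told apart.

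The kinase inhibitors left the igfbp1 copies without a call against vehicle in the full set of libraries. Under SB203580 at 28 °C both copies had their lowest group means of the study. igfbp1b was at 2.73, 2.33 and 3.07 scaled TPM in 28C-SB and at 6.23, 5.71 and 4.13 in 28C-DMSO, with no overlap and a log2 difference of -0.77 (standard error 0.17, limma adjusted p = 0.0876). igfbp1a was at 11.6, 9.33 and 11.0 in 28C-SB, against 20.8, 23.4 and 11.6 in 28C-DMSO, a log2 difference of -0.70 (standard error 0.19, adjusted p = 0.209 in limma). In that comparison 0 of the 10 identifiers were called, beside 0.0207% of all identifiers, and 4 had an unadjusted p under 0.05. Replicate 3 of 28C-DMSO, the lowest vehicle library for both copies, decided these calls. Without it igfbp1a, with -0.99, and igfbp1b, with -0.92, were called lower under SB203580. igfbp1a was then also called lower under PD0325901, with -0.72 in place of -0.43. The share of all identifiers called without that library is not reported here, and the 0.0207% belongs to the full fit. At 10 °C igfbp1a was slightly above vehicle in 10C-SB, at 97.2, 97.0 and 109.6 scaled TPM against 80.4, 84.7 and 94.8 in 10C-DMSO, a log2 difference of 0.22 with a 95% interval of -0.18 to 0.63. There 0 of the 10 were called in limma, beside 0.0207% of all identifiers, and 1 had an unadjusted p under 0.05. The difference by temperature under SB203580 was 1.00 for igfbp1b and 0.92 for igfbp1a, with limma adjusted p of 0.179 and 0.345. Here 0 of the 10 passed, beside 0.029% of all identifiers, and 4 had an unadjusted p under 0.05.

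igfbp5b (ENSDARG00000025348, whose mammalian counterpart is abundant in bone matrix) was higher under the MEK inhibitor and lower under the Foxo1 inhibitor in warm larvae. It was at 44.4, 46.1 and 45.1 scaled TPM in 28C-PD, at 18.6, 18.6 and 19.8 in 28C-AS and at 28.0, 27.2 and 27.5 in 28C-DMSO. No library of these groups overlapped another group. The rise under PD0325901 was 1.64-fold, a log2 change of 0.69 with a standard error of 0.05 (limma adjusted p = 7.83e-09). igfbp5b was the 1 identifier of 10 called in that comparison, beside 1.49% of all identifiers. Under AS1842856 the log2 change was -0.52 with a standard error of 0.05 and an adjusted p of 7.24e-08 in limma, but its fold was under 1.5, so it was not called. SB203580 at 28 °C left igfbp5b at 28.4, 28.3 and 30.6 in 28C-SB, just above the vehicle libraries, a log2 difference of 0.07 with a 95% interval of -0.03 to 0.18.

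At 10 °C the igfbp5b levels of the inhibitor groups were near vehicle. They were 33.3, 34.2 and 34.7 scaled TPM in 10C-AS, 32.5, 33.7 and 32.4 in 10C-PD, 28.4, 29.8 and 33.3 in 10C-SB and 30.6, 31.1 and 33.4 in 10C-DMSO, and each inhibitor group overlapped 10C-DMSO. The log2 differences from 10C-DMSO were 0.10 in 10C-AS and 0.05 in 10C-PD, with 95% intervals of -0.0049 to 0.21 and -0.05 to 0.16. The tests of the difference by temperature were called for both compounds. For AS1842856 the change at 10 °C minus that at 28 °C was 0.62 with a standard error of 0.07 (limma adjusted p = 2.01e-06), and for PD0325901 it was -0.64 with a standard error of 0.07 (limma adjusted p = 8.37e-06). Under PD0325901, 2 of the 10 identifiers passed that test, beside 1.62% of all identifiers. Besides igfbp5b this was the second igfbp2a identifier, ENSDARG00000111105. That identifier passed the authors' filter only through 10C-PD, where it was high, so its call is no support. In the cold response of vehicle larvae igfbp5b had a log2 change of 0.19 (95% interval 0.08 to 0.30), with an adjusted p of 0.00472 in limma and a fold under the threshold. Under AS1842856 igfbp5b rose in the cold by 0.81 (adjusted p = 2.83e-11 in limma). Under PD0325901 the cold change was -0.45, not called because of its fold, and it was called under quantile normalization (-0.64) and on unscaled TPM (-0.61).

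Liver marker sums were lower in 28C-PD too, at 7379 to 7758 scaled TPM, against 9448 to 10424 in 28C-DMSO, although none of the 11 identifiers was called under PD0325901. In 28C-SB the liver sums, at 9153 to 9816, overlapped those of 28C-DMSO. Both 28C-PD and 28C-AS had lower liver sums than vehicle, whereas igfbp5b was higher in 28C-PD and lower in 28C-AS. The same holds for epidermal markers, at 5470 to 5907 in 28C-PD and 5974 to 6952 in 28C-AS, against 7398 to 8507 in 28C-DMSO, with 1 of 11 called lower under PD0325901. Endothelial sums were at 51.1 to 54.0 in 28C-PD, against 55.2 to 62.8 in 28C-DMSO, with 0 of 7 called. Cartilage and bone sums overlapped, at 564 to 664 in 28C-PD and 544 to 615 in 28C-DMSO, with 0 of 8 called. These marker counts stand beside 1.49% of all identifiers called under PD0325901 at 28 °C. The part of liver, skin, endothelial, cartilage and bone content in either igfbp5b difference was not tested.

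**Figure D3:**
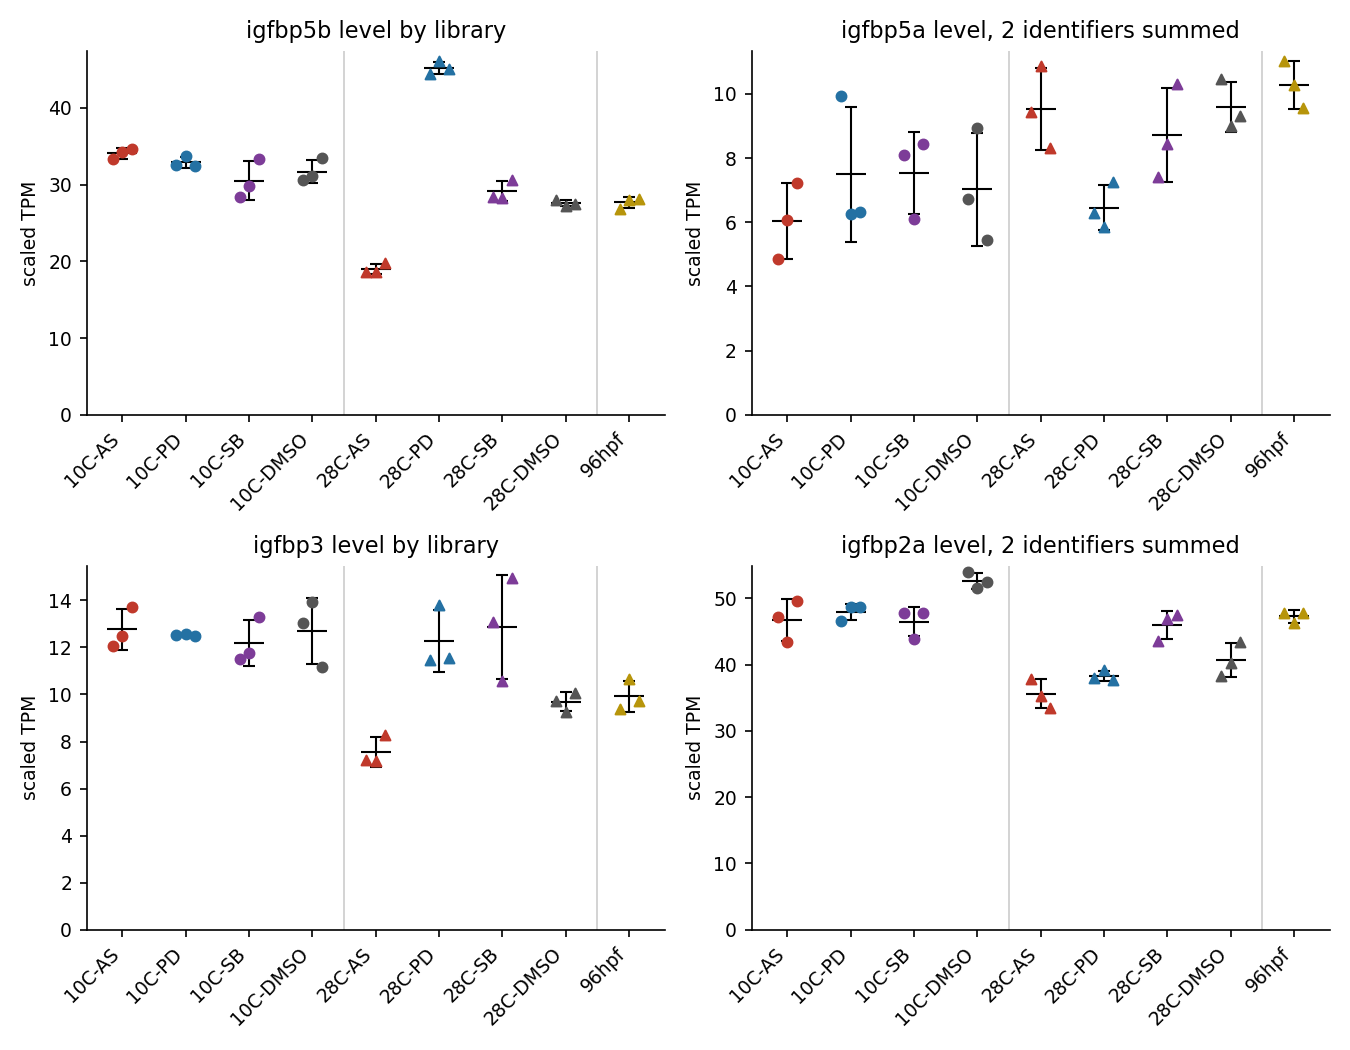
Levels in scaled TPM in each library of igfbp5b, igfbp5a (sum of 2 identifiers), igfbp3 and igfbp2a (sum of 2 identifiers); circles are larvae at 10 °C, triangles larvae at 28 °C or at the start, bars the group mean ± SD of 3 libraries. igfbp5b separates at 28 °C into 28C-PD (44.4 to 46.1), vehicle (27.2 to 28.0) and 28C-AS (18.6 to 19.8), and not at 10 °C.

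igfbp5a, which in zebrafish larvae marks calcium-transporting ionocytes of the skin, is listed under 2 gene identifiers, and transcripts could have been split between them, so the value of each is uncertain. ENSDARG00000111203 was called lower in the cold response, at 2.47, 0.604 and 0.392 scaled TPM in 10C-DMSO and at 5.61, 2.91 and 1.56 in 28C-DMSO, with a log2 change of -1.03 (standard error 0.30, limma adjusted p = 0.00919). These ranges overlapped, and the call was lost without 28C-DMSO replicate 1 (-0.68) and without 10C-DMSO replicate 3 (-0.78). It was also lost in a limma fit of the compared groups alone (adjusted p = 0.142). The same identifier was called lower in the cold under AS1842856, at 1.59, 1.77 and 0.947 scaled TPM in 10C-AS, against 3.17, 4.93 and 3.18 in 28C-AS (log2 -0.96, limma adjusted p = 0.0111). That call was lost without 28C-AS replicate 2 (-0.79) and without 10C-AS replicate 3 (-0.81). The more abundant identifier, ENSDARG00000039264, had group means of 4.60 to 8.36 and was not called in any of the 15 comparisons. Summed over both, igfbp5a was at 6.73, 8.92 and 5.44 scaled TPM in 10C-DMSO and at 10.5, 9.00 and 9.32 in 28C-DMSO. With the identifiers summed before the fit, a choice made after seeing the data, igfbp5a was called in the cold under AS1842856 (-0.59, limma adjusted p = 0.00621) and in no other comparison.

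The ratio of the igfbp5 copies differed among the warm groups. igfbp5b was 7.06 ± 0.83 times the summed igfbp5a in 28C-PD, 2.02 ± 0.34 times in 28C-AS and 2.89 ± 0.18 times in 28C-DMSO (SD, n = 3 each). In 28C-SB it was 3.39 ± 0.44, and its libraries, at 2.97 to 3.84, overlapped those of 28C-DMSO, at 2.68 to 3.03. In 10C-DMSO the ratio was 4.72 ± 1.34, and the cold groups lay between 4.12 and 5.78. The ratios use the sum of the igfbp5a identifiers, were not tested, and overlapped between no pair of 28C-PD, 28C-AS and 28C-DMSO.

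igfbp3 (ENSDARG00000099144), whose mammalian counterpart carries most IGF in blood, showed small differences. It was at 13.0, 13.9 and 11.2 scaled TPM in 10C-DMSO and at 9.72, 9.27 and 10.1 in 28C-DMSO, with no overlap, a log2 difference of 0.36 with a 95% interval of 0.14 to 0.57 and an adjusted p of 0.00736 in limma. Its fold was under 1.5, so it was not called. The lowest level of igfbp3 was in 28C-AS, at 7.22, 7.16 and 8.30, which was 0.32 below 28C-DMSO on the log2 scale as fitted (95% interval -0.53 to -0.11, adjusted p = 0.0155 in limma). From that low level it rose in the cold under AS1842856 to 12.1, 12.5 and 13.7 in 10C-AS, a log2 change of 0.69 (limma adjusted p = 7.61e-06). In 28C-PD, at 11.5, 13.8 and 11.6, and in 28C-SB, at a mean of 12.9 with a lowest library of 10.6, igfbp3 was above every 28C-DMSO library, without passing the test (adjusted p = 0.0708 and 0.205 in limma). igfbp3 and its neighbour igfbp1a thus differed in 28C-AS, where igfbp1a had risen and igfbp3 was at its lowest.

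igfbp2a, whose mammalian counterpart also carries IGF in blood, was the most abundant member in warm vehicle larvae and is listed under 2 identifiers. The main one, ENSDARG00000052470, was at 53.9, 51.5 and 52.4 scaled TPM in 10C-DMSO and at 38.3, 40.2 and 42.3 in 28C-DMSO, with no overlap and a log2 difference of 0.38 (95% interval 0.27 to 0.49, limma adjusted p = 8.13e-06), below the fold threshold. Cold larvae under each inhibitor were lower than cold vehicle larvae, at 45.9, 43.4 and 49.6 in 10C-AS, 42.7, 44.2 and 44.8 in 10C-PD and 47.2, 43.9 and 47.7 in 10C-SB. None of these passed the fold threshold, and the log2 differences were -0.18, -0.26 and -0.18 with limma adjusted p of 0.0607, 0.0202 and 0.287. The second identifier, ENSDARG00000111105, was listed at 0 in 20 of the 27 libraries. It was at 3.85, 4.49 and 3.76 scaled TPM in 10C-PD and was listed at 0 in all libraries of 10C-DMSO and of 28C-PD. It was therefore called in PD0325901 at 10 °C (adjusted p = 0.000189 in limma), as the 1 identifier of 10 beside 0.382% of all identifiers, in the cold under PD0325901 (limma adjusted p = 3.37e-06) and in the difference by temperature (limma adjusted p = 0.00078). Only in 10C-PD did every replicate reach the minimum by which the authors kept genes. The identifier is thus in the table only because it was high there, so these calls were built in and are no support. The fitted changes depend on the pseudocount and no fold is given, since a listed 0 need not mean absence when the abundance of near-identical transcripts is estimated jointly. Summed over both identifiers igfbp2a was at 46.5, 48.7 and 48.6 in 10C-PD and 53.9, 51.5 and 52.4 in 10C-DMSO. With the sum in the fit, igfbp2a was not called in any of the 15 comparisons. Its log2 differences from cold vehicle were then -0.17 in 10C-AS, -0.13 in 10C-PD and -0.18 in 10C-SB. The limma adjusted p of these were 0.102, 0.323 and 0.335, so the 0.0202 of the main identifier under PD0325901 did not hold for the sum.

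igfbp2b (ENSDARG00000031422) and igfbp6b (ENSDARG00000090833) were low and without a call in all 15 comparisons. igfbp2b had group means between 7.48 ± 0.66 scaled TPM in 96hpf and 8.94 ± 0.75 in 28C-SB, and every group overlapped its neighbour in that order. Its log2 change in the cold was 0.10, with a 95% interval of -0.08 to 0.28. igfbp6b, whose mammalian counterpart binds IGF2 in preference to IGF1, had means between 4.22 ± 0.51 in 96hpf and 5.76 ± 0.21 in 28C-SB. In 10C-SB it was at 3.84, 4.32 and 5.01 scaled TPM, against 5.82, 5.93 and 5.53 in 28C-SB, a log2 difference of -0.33 (95% interval -0.53 to -0.13, limma adjusted p = 0.00847) under the fold threshold.

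**Figure D4:**
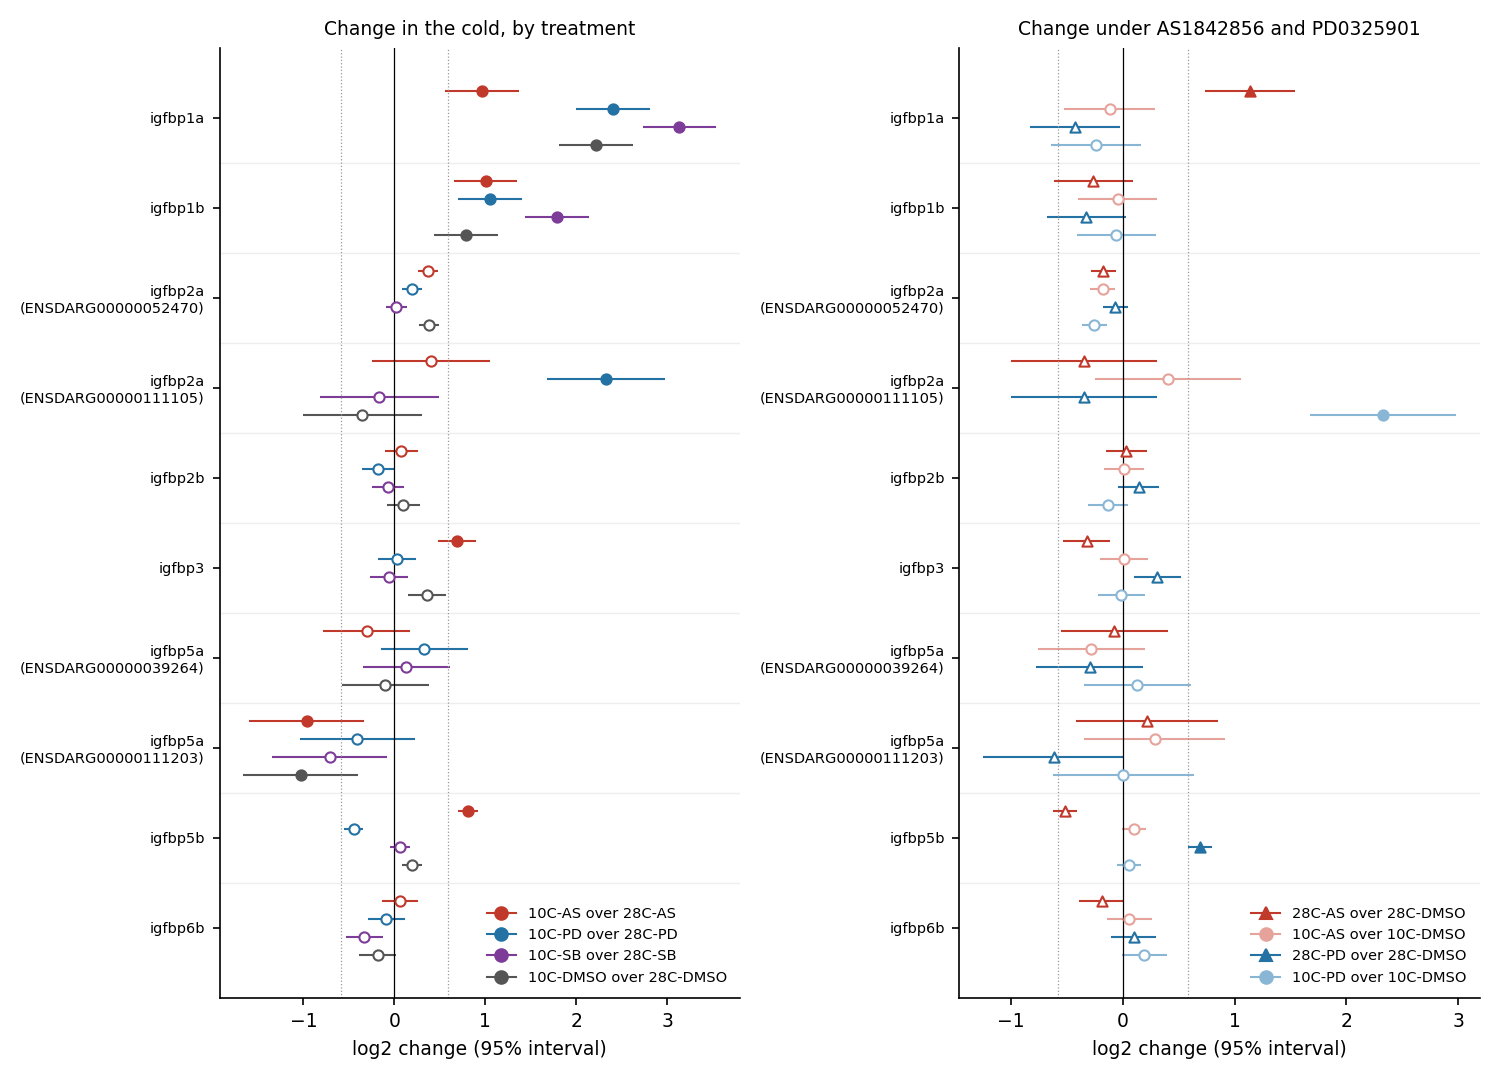
Log2 change with its 95% interval for each of the 10 identifiers: left, 10 °C against 28 °C under each treatment; right, AS1842856 and PD0325901 against vehicle at 28 °C (triangles) and at 10 °C (circles). Filled symbols were called, and dotted lines mark the fold threshold of 0.585. The right panel shows igfbp1a called under AS1842856 and igfbp5b under PD0325901 at 28 °C, and neither called at 10 °C. The second igfbp2a identifier, called under PD0325901 at 10 °C, passed the authors' filter only through 10C-PD, so that call is no support.

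For each member the genes whose log2 levels were most like its own over the 27 libraries were looked up, among 9378 or 9379 other identifiers that averaged 5 scaled TPM or more. These correlations are a description, because libraries of a group share their treatment and the 9 groups differ mostly by temperature. igfbp1a was followed most closely by trim71, an RNA-binding ubiquitin ligase (r = 0.965), tuba8l4, a tubulin (0.963), and atp6v0ca, a proton pump subunit (0.956). igfbp1b was most like cyp24a1, the vitamin D 24-hydroxylase (0.945), mvp, the major vault protein (0.936), and anxa2a, an annexin (0.932). igfbp5b, with its split between the warm inhibitor groups, was most like slc34a2b, a sodium phosphate cotransporter (0.950). Next came rhoab (0.933) and, to a lesser degree, emid1 (0.868). igfbp3 came nearest to klc4, a kinesin light chain (0.838), and the main igfbp2a identifier to tfa, the transferrin gene of liver (0.860). For that igfbp2a identifier krt97 (0.857) and icn (0.849) were almost as close. The closest genes of igfbp2b (0.587) and of the abundant igfbp5a identifier (0.585) were much less alike.

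The partners of the IGFBPs were taken from lists that were written with earlier results of these data known, and a symbol with several identifiers counts once for each. Of 5 measured identifiers of IGF and insulin ligands, 0 rose and 1 fell in the cold response, beside 15.8% of all identifiers called. That 1 was the less abundant identifier of igf2b, ENSDARG00000116125, at 1.70 ± 2.94 scaled TPM in 10C-DMSO and 6.31 ± 3.28 in 28C-DMSO (limma adjusted p = 0.0473), and its call was lost without 28C-DMSO replicate 1 or 2 and without 10C-DMSO replicate 2 or 3, with log2 values between -3.95 and -1.45 over 14 alternatives. The other ligands lie outside the rule for named genes and were chosen after their values were seen. The second identifier of igf2b was at 21.3 ± 0.99 in 10C-DMSO and 14.8 ± 0.97 in 28C-DMSO, a log2 difference of 0.50 under the fold threshold. igf1 was low, at 1.78 ± 0.14 in 10C-DMSO and 1.88 ± 0.57 in 28C-DMSO. ins, which encodes insulin, was at 105 ± 8.89 in 10C-DMSO and 100 ± 7.19 in 28C-DMSO, with a log2 difference of 0.07. Under AS1842856 at 28 °C ins fell to 58.7 in 28C-AS, against 100 in 28C-DMSO, a log2 change of -0.76 (limma adjusted p = 0.000183), and was the 1 ligand identifier of 5 called there, beside 12.2% of all identifiers. It was also lower in 28C-PD, at 72.5 ± 12.7, a log2 change of -0.47 under the fold threshold (limma adjusted p = 0.0421).

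Insulin receptor substrates, the adaptors that carry the signal from the IGF and insulin receptors, rose in the cold. Of 13 identifiers of receptors and adaptors, 3 rose and 0 fell, beside 15.8% of all identifiers called, with a median log2 change of 0.26. irs2a was at 28.6 scaled TPM in 10C-DMSO and 12.0 in 28C-DMSO, a log2 rise of 1.19 (limma adjusted p = 3.18e-11). irs2b rose by 1.16, at 16.4 against 6.79, and irs1 by 1.03, at 7.39 against 3.12. None of the 13 was called under an inhibitor against vehicle, at 10 °C or at 28 °C. Of all identifiers 12.2%, 1.49% and 0.0207% were called at 28 °C under AS1842856, PD0325901 and SB203580, and 0.925%, 0.382% and 0.0207% at 10 °C. irs2a was lower under AS1842856 at both temperatures, but under the fold threshold. Its log2 change was -0.39 at 10 °C and -0.41 at 28 °C (limma adjusted p = 0.00504 and 0.000151).

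Downstream of these receptors, 4 of 40 identifiers of PI3K, Akt and mTOR signaling rose in the cold response and 1 fell, which is no larger a share than the 15.8% of all identifiers called, with a median log2 change of -0.05. Regulatory subunits of PI3K were among them, with pik3r1 at 116 scaled TPM in 10C-DMSO and 55.7 in 28C-DMSO and pik3r3a at 37.4 and 17.4, log2 rises of 1.04 and 1.07. The others were ddit4 and sesn2, which restrain mTOR under stress, with log2 rises of 0.98 and 0.97. Under AS1842856 at 28 °C 3 of the 40 rose and 3 fell, beside 12.2% of all identifiers called, among them sesn2, at 7.27 in 28C-AS against 2.73 in 28C-DMSO, and pdpk1a, a kinase that activates Akt, at 2.26 against 6.61.

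Among 11 identifiers of proteases that cut IGFBPs and of their inhibitors, 0 rose and 1 fell in the cold response, beside 15.8% of all identifiers called. It was an identifier of stc2a, whose product, a stanniocalcin, blocks the IGFBP protease Pappa, at 4.44 scaled TPM in 10C-DMSO and 10.5 in 28C-DMSO (log2 -1.06, limma adjusted p = 0.000308). The symbol has 2 identifiers, of which the other was not called, so the value is uncertain. Under AS1842856 at 28 °C both identifiers of htra1a, a secreted serine protease, fell, by 0.75 and 0.86 on the log2 scale, which makes 2 of the 11 beside 12.2% of all identifiers called.

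Secreted proteins related to the IGFBPs by domain include the CCN family. Of 15 identifiers 5 rose and 2 fell in the cold response, beside 15.8% of all identifiers called, with a median log2 change of 0.09. ccn1, a matricellular protein and immediate early gene, was at 114 scaled TPM in 10C-DMSO and 5.04 in 28C-DMSO, a log2 rise of 4.26 (limma adjusted p = 3.99e-18). ccn2a, of the same family, rose at both identifiers, by 2.38 and 2.42, and htra4 fell by 1.25. Under PD0325901 at 10 °C 3 of the 15 were lower and 0 higher than in vehicle, beside 0.382% of all identifiers called: ccn1 at 67.9 in 10C-PD and 114 in 10C-DMSO (log2 -0.73, limma adjusted p = 0.000365), and both identifiers of ccn2a. The less abundant ccn2a identifier, ENSDARG00000112741, was called in 9 of 15 alternatives, with log2 values between -1.11 and -0.79, and its call was lost without any 1 of the 10C-DMSO libraries and without 10C-PD replicate 1 or 2. At 28 °C ccn1 was instead higher under PD0325901, at 8.87 in 28C-PD against 5.04 in 28C-DMSO (log2 0.72, limma adjusted p = 9.77e-05). No other of the 15 was called there, beside 1.49% of all identifiers. In the test of the difference by temperature 3 of the 15 were called lower and 0 higher, beside 1.62% of all identifiers. Under AS1842856 at 28 °C 4 of the 15 fell and 0 rose, beside 12.2% of all identifiers called, among them igfbp7, a low-affinity relative of the IGFBPs, at 26.3 in 28C-AS against 50.5 in 28C-DMSO (log2 -0.92, limma adjusted p = 4.84e-10), and ccn2b, at 1.85 against 5.24.

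The growth hormone axis, which drives IGF production in the liver, had calls in the cold and, at 28 °C, under PD0325901 and AS1842856. Of 12 identifiers 1 rose and 2 fell in the cold response, beside 15.8% of all identifiers called. cish, a feedback inhibitor of cytokine and growth hormone signaling, was at 68.8 scaled TPM in 10C-DMSO and 19.2 in 28C-DMSO (log2 1.79, limma adjusted p = 3.08e-12). ghrb, a growth hormone receptor, fell by 0.75 and sst1.1, a somatostatin that holds back growth hormone release, by 0.72. Under PD0325901 at 28 °C, where igfbp5b rose, 2 of the 12 rose and 0 fell, beside 1.49% of all identifiers called, namely socs2, another feedback inhibitor, by 0.79 on the log2 scale, and cish, by 0.68, at 31.4 in 28C-PD against 19.2 in 28C-DMSO. Under AS1842856 at 28 °C 0 of the 12 rose and 1 fell, beside 12.2% of all identifiers called. It was jak2a, at 5.91 in 28C-AS against 11.6 in 28C-DMSO (log2 -0.87, limma adjusted p = 0.00214).

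Genes of fasting and of FoxO control in liver were higher in the cold response, as igfbp1a was. The list shares irs2a and irs2b with the adaptors above. Of 19 identifiers 11 rose and 0 fell in the cold response, with a median log2 change of 1.05, beside 15.8% of all identifiers called. Against 96hpf, 7 of the 19 were higher in 10C-DMSO and 0 lower (median 0.58), beside 12.4% of all identifiers. Over 12 h at 28 °C 0 rose and 5 fell, beside 2.75% of all identifiers, whereas igfbp1a was not called there (log2 -0.06). trib3, a pseudokinase that inhibits Akt, was at 87.8 scaled TPM in 10C-DMSO and 12.1 in 28C-DMSO, and trib1 at 16.9 and 3.43. pck1, the entry enzyme of gluconeogenesis, was at 157 in 10C-DMSO and 50.6 in 28C-DMSO, and g6pca.2, which releases free glucose, at 146 and 41.7. Their log2 rises were 2.76 for trib3, 2.01 for trib1, 1.63 for pck1 and 1.79 for g6pca.2. At 28 °C under AS1842856, where igfbp1a rose, 1 of the 19 rose and 2 fell, a share near the 12.2% of all identifiers called. g6pca.2 was at 91.8 in 28C-AS and 41.7 in 28C-DMSO, a log2 rise of 1.12 (limma adjusted p = 1.84e-08), whereas fbp1a and pdk2a fell by 0.85 and 0.82. Under PD0325901 at 28 °C 0 of the 19 rose and 2 fell, beside 1.49% of all identifiers called: pck1 fell to 12.8 in 28C-PD, against 50.6 in 28C-DMSO (log2 -1.88, limma adjusted p = 1.65e-06), and g6pca.1 fell by 0.81.

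Hypoxia genes, of interest because hypoxia raises igfbp1 in zebrafish, differed both ways in the cold response. Of 31 identifiers 9 rose and 3 fell, beside 15.8% of all identifiers called, with a median log2 change of 0.17. pfkfb3, an activator of glycolysis, was at 75.8 scaled TPM in 10C-DMSO and 11.2 in 28C-DMSO, and vegfaa, an angiogenic factor, at 9.08 and 3.56, with log2 rises of 2.73 and 1.13. epoa, which encodes erythropoietin and is a classical hypoxia target, and ndrg1b fell by 1.62 and 1.61 on the log2 scale. Under AS1842856 at 28 °C 1 of the 31 rose and 3 fell, a share near the 12.2% of all identifiers called. Those that fell were bnip3, bnip3la and bnip3lb, which act in mitophagy, and the call of bnip3la (log2 -0.64) was lost without 28C-AS replicate 3 (-0.58).

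Markers of tissues that make IGFBPs were read beside these results. The summed level of 11 liver marker identifiers was 9457 to 11144 scaled TPM in 10C-DMSO and 9448 to 10424 in 28C-DMSO, ranges that overlap, with 1 of 11 called higher and 0 lower. That 1 was cp, which encodes ceruloplasmin, and it was called lower than in 10C-DMSO under each inhibitor at 10 °C. Under SB203580 its call held in 3 of 15 alternatives, with log2 values between -0.71 and -0.52, and was lost without any 1 of the 10C-DMSO libraries and without 10C-SB replicate 2 or 3. Cartilage and bone markers were higher in the cold, at 908 to 1018 in 10C-DMSO and 544 to 615 in 28C-DMSO, with 3 of 8 identifiers called higher and 0 lower. The sum of 7 endothelial markers was 50.0 to 51.9 in 10C-DMSO and 55.2 to 62.8 in 28C-DMSO, with tie1 called lower. The sums of the 7 neuronal markers overlapped, at 806 to 848 in 10C-DMSO and 821 to 846 in 28C-DMSO. So did those of 11 muscle identifiers, at 29973 to 33972 and 27080 to 30274 in the same order, and of 11 epidermal identifiers, at 8498 to 10005 and 7398 to 8507, of which 2 were called higher and 1 lower. The marker counts of the cold response stand beside 15.8% of all identifiers called. No marker of these lists was at 0 in all 3 libraries of a group. The part of cartilage, bone and endothelial content in the IGFBP changes was not tested.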

How the data were processed

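RNA of whole larvae was sequenced in 27 libraries. The authors deposited TPM values, estimated from the reads with Salmon 0.13.1 against Ensembl transcripts with bias correction and summed to genes, and kept genes that reached a minimum in every replicate of a group. Their counts were not used here, so no count model was run. Each library was scaled by its median ratio to the geometric mean of all libraries, and log2(scaled TPM + 1) was fitted with limma 3.58.1 (R 4.3.3) in 1 model over the 9 groups (18 residual degrees of freedom, trended prior, two-sided tests). This scaling assumes that most genes do not change. The fit was also run on simulated data, with an outcome that is not reported here. Alternatives were TPM as deposited, quantile normalization, other pseudocounts, filters, fits and priors, a replicate block and each library left out.

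Genes were named by rule: all IGFBP members, the called genes of each list (at most 4 by size of change per comparison, or the 2 most abundant where none was called) and the 3 genes most like each member, of which the text gives some and others are not reported here. Exceptions were igf1, ins, the second igf2b identifier and the liver marker fabp10a in the cold response, which were chosen after their values were seen. The members and lists were chosen with earlier results of these data known.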

Additional observations from a re-analysis of the deposited data

Results flagged for a closer look

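Changes under an inhibitor that differed between the temperatures, by the test of the difference itself (the change at 10 °C minus the change at 28 °C, limma, adjusted over 24101 identifiers), were found for 3 identifiers. For igfbp1a under AS1842856 the difference was -1.25 on the log2 scale (adjusted p = 0.00201), with changes of -0.12 at 10 °C and 1.13 at 28 °C. For igfbp5b it was 0.62 under AS1842856 (adjusted p = 2.01e-06 in limma), with changes of 0.10 and -0.52 at 10 °C and 28 °C, and -0.64 under PD0325901 (adjusted p = 8.37e-06 in limma), with changes of 0.05 and 0.69. For the second igfbp2a identifier, ENSDARG00000111105, it was 2.68 under PD0325901 (adjusted p = 0.00078 in limma). That last value is a fitted difference that depends on the pseudocount and is neither a fold nor a bound, because the identifier was listed at 0 in 20 of 27 libraries, and igfbp2a was not called with both identifiers summed. The identifier also passed the authors' filter through 10C-PD alone, where it was high, so its call is no support for a difference.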

How the results depend on the processing

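Over 37 settings no called value changed direction, 247 of 258 alternative counts of called IGFBP identifiers stayed within 1.5 times, and 354 of 366 alternative values of called changes kept direction and call. The count under PD0325901 at 10 °C was 1 and became 0 with a filter of at least 5 scaled TPM or with identifiers summed, and the count by temperature under PD0325901 was 2 and became 1 with either, because the second igfbp2a identifier is then not tested by itself. After 12 h at 10 °C the count was 2 and became 1 with quantile normalization or in a fit of only the groups compared; the cause was not tested. Leaving out a library gave counts of 1 to 3 after 12 h at 10 °C, 1 to 2 under PD0325901 at 28 °C and 0 to 2 under SB203580 at 28 °C, the highest of both inhibitor counts being without 28C-DMSO replicate 3. The shares of all identifiers called in those refits are not reported here. The igfbp1a rise in the cold response ran from 1.92 to 2.40 and that under AS1842856 at 28 °C from 0.84 to 1.32, while the igfbp5b rise under PD0325901 ran from 0.68 to 0.83.

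Replicate numbers are shared by all groups. Between groups, deviations of same-numbered libraries correlated at a mean of 0.0159 (-0.0765 to 0.227). Those of libraries with other numbers correlated at a mean of -0.00793 (-0.178 to 0.0961). A small mean cannot show that no groups were paired. With a replicate block the igfbp1a change in the cold response was 2.22 (limma adjusted p = 2.21e-08), its count was 3, and no count of called members changed. TPM as deposited moved the median of all genes by 0.121 under PD0325901 at 28 °C, by -0.139 in the cold under PD0325901 and by -0.14 after 12 h at 10 °C. TPM keeps no depth, so no counting error is given for low members such as the second identifiers.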
